A study of Homo sapiens with 44 samples.

Results

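The genes described here are 10 that encode chaperones of the endoplasmic reticulum (ER), enzymes and cofactors that work with them, parts of the ER-associated degradation machinery, and 1 transcription factor of the unfolded protein response. They are HSPA5, HSP90B1, CALR, PDIA4, SDF2L1, DNAJB9, XBP1, HERPUD1, SEL1L and EDEM1, chosen by symbol. All 10 were found among the 18797 genes of one RNA table and the 21159 genes of the other. The RNA came from HCT116, an established line grown from a human colon carcinoma. The series asks how GAS41, a reader of acylated histone H3 encoded by YEATS4, takes part in gene repression. One experiment set cells under 500 nM doxorubicin, a drug that traps topoisomerase II on DNA and so causes breaks, against cells under the solvent DMSO (3 libraries each, in cells described as wild type with both p53 alleles). The other had 4 groups of 3 libraries. These were GAS41 knockout cells (GAS41-KO), knockout cells with a stable GFP-Flag-GAS41 of normal sequence (wt rescue), knockout cells with a stable GFP-Flag-GAS41 carrying Y74A/W93A (mut rescue), and cells with GAS41 intact (WT). Both rescue groups therefore also carry the knockout. The time under doxorubicin, the number of knockout clones and whether replicates were separate cultures are not given in the labels, which call the replicates biological. Without separate cultures, the p-values describe only how far these libraries scatter.

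Proteins bound for membranes or secretion fold inside the ER with the help of chaperones such as BiP, the product of HSPA5. When unfolded proteins build up there, the membrane sensors IRE1, PERK and ATF6 start the unfolded protein response. IRE1 splices XBP1 mRNA into a form that encodes an active transcription factor, cleavage frees the active part of ATF6, and PERK favours translation of ATF4. ATF6 and the XBP1 protein act with NF-Y at short promoter elements of chaperone and degradation genes. The tables give 1 value per gene, so spliced and unspliced XBP1 mRNA cannot be told apart here.

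Those elements are shown because they are the best-known sequence feature of this gene group. Promoters from RefSeq (assembly GRCh38.p14), from 250 bases before to 50 bases after the start, were searched on both strands for 3 motifs. The ER stress response element (ERSE), CCAAT and CCACG with any 9 bases between them, was found in 4 of the 10 genes. The related ERSE-II, ATTGG and CCACG with any 1 base between them, was found in another 2, and the UPRE core, TGACGTGG, in 0. No 2 of these matches overlap. Over all 27305 gene symbols, each with its first listed promoter, ERSE was found in 0.0806%, ERSE-II in 0.0549% and the UPRE core in 0.795%. The motifs were picked as known features of this gene group, so these shares are background and not a test. The stretches below run 5′ to 3′ on the strand of the gene, and the fixed letters of the motif are in capitals.
HSPA5: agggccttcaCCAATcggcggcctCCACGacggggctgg
XBP1: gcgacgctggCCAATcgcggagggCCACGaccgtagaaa
HSP90B1, first match: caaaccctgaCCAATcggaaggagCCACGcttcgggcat
HSP90B1, second match: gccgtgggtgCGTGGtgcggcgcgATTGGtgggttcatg
CALR: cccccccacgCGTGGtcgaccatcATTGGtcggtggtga
HERPUD1: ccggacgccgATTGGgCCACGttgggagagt
SDF2L1: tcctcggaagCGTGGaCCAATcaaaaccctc
They lie at chr9:125241381-125241419 (minus strand) for HSPA5, chr22:28800593-28800631 (minus strand) for XBP1, chr12:103930206-103930244 and chr12:103930311-103930349 (plus strand) for HSP90B1, and chr19:12938374-12938412 (plus strand) for CALR. The ERSE-II stretches lie at chr16:56932015-56932045 (plus strand) for HERPUD1 and chr22:21642104-21642134 (plus strand) for SDF2L1. The last base of the match lies 48 bases before the first base of the gene in HSPA5, 34 in XBP1, 176 and 71 in HSP90B1, 207 in CALR, 107 in HERPUD1 and 178 in SDF2L1. The second HSP90B1 match and those of CALR and SDF2L1 read on the opposite strand, so their capitals appear as CGTGG and ATTGG or CCAAT. The windows of DNAJB9, PDIA4, SEL1L and EDEM1 held none of the 3 motifs. A match is a run of letters and does not show that a factor binds there.

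Levels are normalized reads (reads divided by the library's size factor) and are compared only within a gene. A log2 change is a difference of the deposited log2 values, a scale that compresses genes with few reads, and is given with its standard error (SE). A gene was called when limma's adjusted p (Benjamini-Hochberg over all tested genes of the table) was under 0.05. The GAS41 libraries held 16857982 to 18546135 reads each, and those with doxorubicin or DMSO held 17442035 to 18894312. YEATS4 RNA averaged 349 ± 32.3 normalized reads in GAS41-KO, 3253 ± 323 in wt rescue, 2482 ± 108 in mut rescue and 618 ± 8.98 in WT (SD, n = 3 each), so the knockout libraries still held YEATS4 reads at a lower level (log2 change -0.64, adjusted p = 2.09e-06). It averaged 185 ± 10.7 with doxorubicin and 668 ± 48.3 with DMSO. The keratins KRT8, KRT18 and KRT19, markers of epithelium, were high in every group, while the enterocyte markers VIL1 and LGALS4 were at or near 0 in the GAS41 experiment. Over 7 markers of leukocytes, fibroblasts and endothelium in that table, the summed level was 304 to 365 normalized reads in GAS41-KO, 192 to 212 in wt rescue, 314 to 380 in mut rescue and 296 to 334 in WT. Of the 3 that were tested, COL3A1 and LYZ were called higher in GAS41-KO than in WT, with COL3A1 at 18.6 ± 8.38 in GAS41-KO and 0.633 ± 0.548 in WT (adjusted p = 1.43e-05) and LYZ at 45.8 ± 7.67 in GAS41-KO and 19.6 ± 4.32 in WT (adjusted p = 0.000159). COL1A1, which makes up most of the sum, was not called there (adjusted p = 0.0936), and all 3 were called lower in wt rescue than in GAS41-KO. Their part in the results was not tested. The leukocyte marker PTPRC was at 0 in all wt rescue, mut rescue and WT libraries. Wt rescue replicate 1 stood apart from replicates 2 and 3. The SD over genes of its log2 difference from them was 0.260 and 0.212, against 0.107 between replicates 2 and 3, so wt rescue results are given with and without these libraries. For single genes, changes with wt rescue replicate 1 alone are given as sizes and say nothing of a call. Replicates of mut rescue and DMSO were also unevenly spread. In mut rescue the SD was 0.155 between replicates 1 and 2, 0.199 between 2 and 3 and 0.114 between 1 and 3. In DMSO it was 0.142 between replicates 1 and 2, 0.195 between 1 and 3 and 0.120 between 2 and 3.

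**Figure D1:**
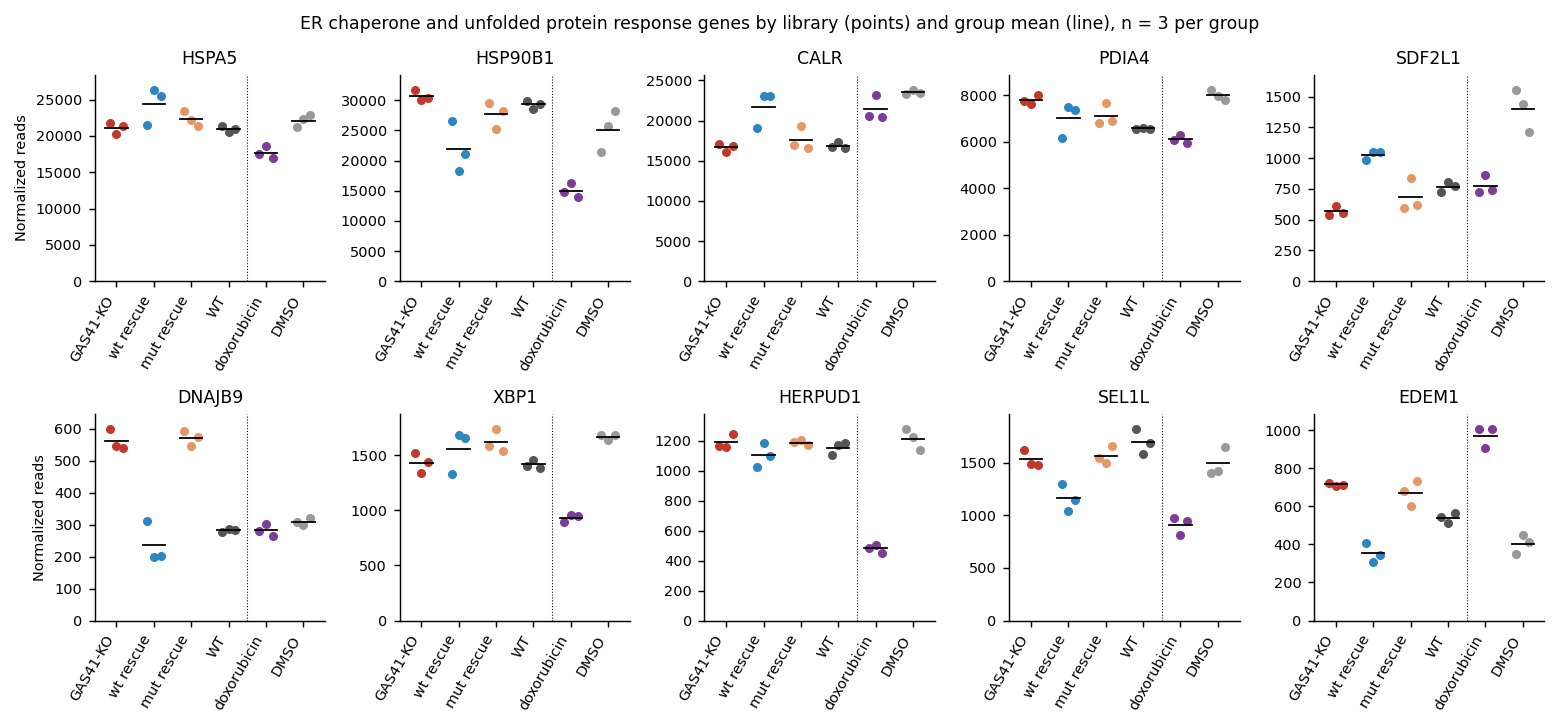
Normalized reads of the 10 genes (vertical axis, from 0, a scale of its own in each panel) in every library (points) with the group mean (line), 3 libraries per group. The dotted line separates the GAS41 experiment on the left from the doxorubicin experiment on the right. EDEM1 is higher and HERPUD1 and XBP1 are lower in doxorubicin than in DMSO without overlap, and DNAJB9 is about equally high in GAS41-KO and mut rescue.

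The first comparison asks how these genes differed between cells under doxorubicin and cells under DMSO. The RNA of most of them was lower with doxorubicin than with DMSO. Of the 10, 7 fell, 1 rose and 2 did not pass the test, while 65.7% of all 14195 tested genes were called, 32.3% higher and 33.4% lower. In 1 gene all treated libraries were above all DMSO libraries and in 8 all were below, against 34.0% and 35.2% of all tested genes. The median log2 change was -0.493 over the 10 genes and -0.009 over all tested genes. HERPUD1 fell most on the log2 scale (-1.07) and EDEM1 rose (0.98). In bulk RNA, fewer cells that express a gene and less RNA of it per cell cannot be told apart. Of 7 tested colon epithelium markers in the same cells, 6 rose and 1, EPCAM, fell. KRT8 averaged 91614 ± 4984 normalized reads with doxorubicin and 41323 ± 5767 with DMSO, and EPCAM averaged 4938 ± 409 with doxorubicin and 7198 ± 391 with DMSO. The summed level of 8 colon epithelium markers, most of it from the keratins KRT8, KRT18 and KRT19, was 145916 to 165100 with doxorubicin and 72242 to 87963 with DMSO. That of 8 markers of other cells was 362 to 448 with doxorubicin and 283 to 368 with DMSO. Of the 4 that were tested, VWF and PECAM1 were called higher. VWF averaged 18.9 ± 1.41 with doxorubicin and 8.86 ± 4.76 with DMSO (adjusted p = 0.0113). PECAM1 averaged 11.3 ± 1.73 with doxorubicin and 5.93 ± 1.62 with DMSO (adjusted p = 0.0384). LYZ and COL1A1 were not called (adjusted p = 0.179 and 0.282). Their part in the results was not tested.

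Among the chaperones, HSP90B1, which encodes the ER form of HSP90 (GRP94), had 14784, 16228 and 13932 normalized reads in doxorubicin and 21455, 25658 and 28200 in DMSO. All treated libraries were below all DMSO libraries, and the DMSO values spread more widely. Its log2 change was -0.73 (SE 0.10, adjusted p = 3.11e-05). HSPA5, whose product BiP binds unfolded chains and holds the 3 sensors inactive, had 17455, 18665 and 16935 in doxorubicin and 21173, 22309 and 22819 in DMSO. The groups did not overlap, and the mean was 0.8 of that in DMSO (log2 change -0.32, SE 0.075, adjusted p = 0.00229). Under quantile normalization this call was lost (log2 change -0.10, adjusted p = 0.206). CALR encodes calreticulin, a lectin chaperone of glycoproteins. It had 20585, 23187 and 20423 in doxorubicin and 23280, 23818 and 23433 in DMSO. The treated libraries lay below the DMSO libraries, by little in replicate 2, and the change did not pass the test (log2 change -0.14, 95% interval -0.31 to 0.03, adjusted p = 0.138). Without doxorubicin replicate 2 it was called (log2 change -0.20, adjusted p = 0.0243), and under quantile normalization it was 0.08 and not called.

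PDIA4, a protein disulfide isomerase that helps to form and rearrange disulfide bonds, had 6084, 6284 and 5926 normalized reads in doxorubicin and 8228, 7959.9 and 7779.8 in DMSO. The groups were far apart for their spread (log2 change -0.38, SE 0.069, adjusted p = 0.000304), and under quantile normalization the change was -0.22 (adjusted p = 0.00416). SDF2L1, a partner of the BiP cochaperones, had 728, 862 and 744 in doxorubicin and 1556, 1438 and 1212 in DMSO. Its level with doxorubicin was 0.555 of that with DMSO (log2 change -0.71, SE 0.087, adjusted p = 9.95e-06), with every treated library below every DMSO library. DNAJB9 (ERdj4), a BiP cochaperone that represses IRE1, had 282, 301 and 265 in doxorubicin and 307, 299 and 321 in DMSO. The groups overlapped and the change did not pass the test (log2 change -0.08, 95% interval -0.22 to 0.05, adjusted p = 0.25). Quantile normalization put it just past the threshold (-0.15, adjusted p = 0.0483).

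XBP1, the transcription factor of the IRE1 branch, had 894, 955 and 946 normalized reads in doxorubicin and 1685, 1635 and 1685 in DMSO. Both groups were tight and well separated, at 0.558 of the DMSO mean (log2 change -0.73, SE 0.063, adjusted p = 4e-07). HERPUD1, an ER membrane protein that helps to assemble the degradation complex, had 486, 506 and 451 in doxorubicin and 1277, 1222 and 1141 in DMSO. Its treated level was 0.396 of the DMSO level (log2 change -1.07, SE 0.067, adjusted p = 1.86e-08). SEL1L, the adaptor of the ubiquitin ligase HRD1 at the ER membrane, had 969.9, 815 and 949.95 in doxorubicin and 1398, 1425 and 1653 in DMSO. All treated libraries were below all DMSO libraries (log2 change -0.61, SE 0.08, adjusted p = 2.03e-05). EDEM1, which marks misfolded glycoproteins for degradation by trimming mannose, went the other way. It had 1006, 904 and 1005 in doxorubicin and 349, 451 and 412 in DMSO, so that even the lowest treated library was about double the highest DMSO library. The rise was 2.41-fold (log2 change 0.98, SE 0.077, adjusted p = 1.52e-07).

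**Figure D2:**
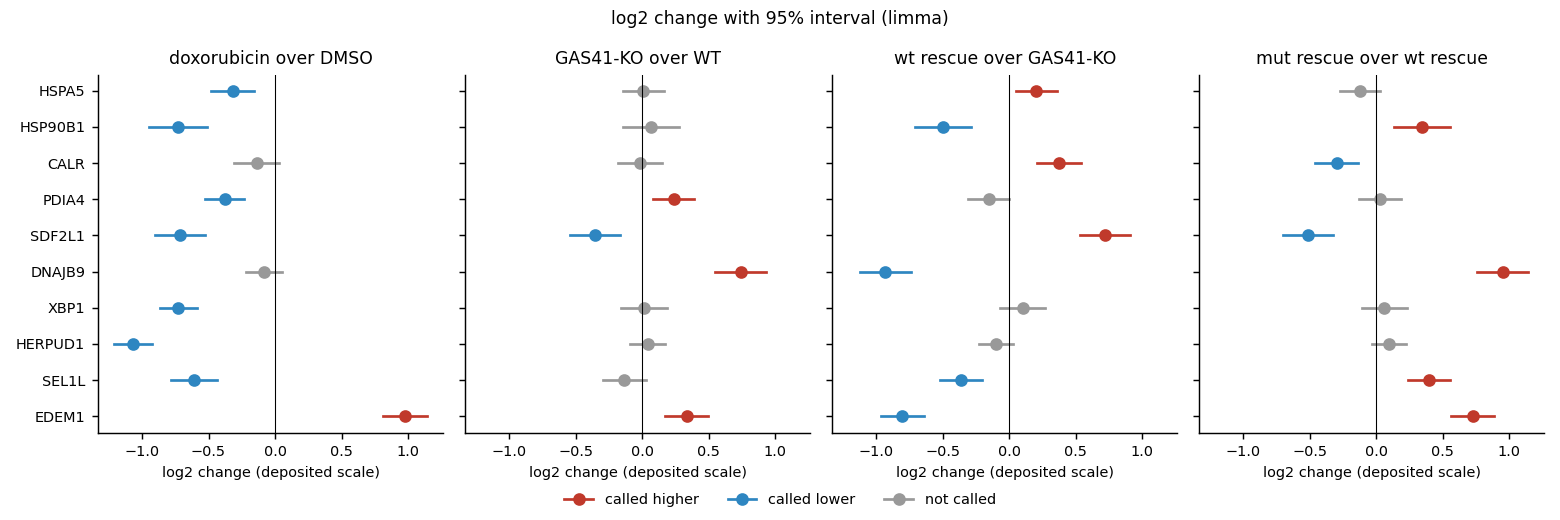
Log2 change of each gene on the deposited scale (point) with its 95% interval (line) in 4 comparisons, red where called higher, blue where called lower and grey where not called. With doxorubicin 7 of 10 genes are called lower and EDEM1 alone of the 10 is called higher, while the panels of wt rescue over GAS41-KO and of mut rescue over wt rescue hold calls in both directions.

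The second comparison asks which genes depended on GAS41. In GAS41-KO cells 3 of the 10 genes rose, 1 fell and 6 did not pass the test. Over all 14505 tested genes 52.6% were called, 26.0% higher and 26.6% lower, so a call was not more frequent among these genes than in the table. The median size of the log2 change, whatever its sign, was 0.10 over the 10 genes and 0.192 over all tested genes. The groups did not overlap in 4 genes that were higher and 1 that was lower in GAS41-KO, against 33.7% and 35.3% of all tested genes. The genes that rose were DNAJB9, EDEM1 and PDIA4, and SDF2L1 fell. Epithelial adhesion genes were low in the knockout libraries. EPCAM averaged 915 ± 17.02 normalized reads in GAS41-KO and 7503 ± 348 in WT, and CDH1 averaged 138 ± 15.1 in GAS41-KO and 1419 ± 17.02 in WT. The summed level of the 8 colon epithelium markers, most of it from the 3 keratins, was 63428 to 65291 in GAS41-KO and 56789 to 60421 in WT. Their part in the results was not tested.

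DNAJB9 had 599, 546 and 539.5 normalized reads in GAS41-KO and 276, 286 and 284 in WT. Every knockout library held close to double the WT level (fold 1.99, log2 change 0.74, SE 0.09, adjusted p = 4.3e-06). EDEM1 had 724, 709 and 714 in GAS41-KO and 541, 511 and 564 in WT. The knockout values were nearly equal to each other and all above WT (log2 change 0.34, SE 0.076, adjusted p = 0.0015). PDIA4 had 7728, 7615 and 7995 in GAS41-KO and 6563, 6603 and 6542 in WT. The shift was small and without overlap (log2 change 0.24, SE 0.073, adjusted p = 0.0116), and leaving out 1 library at a time gave adjusted p-values of 0.0254 to 0.0495. SDF2L1 had 538, 614 and 557 in GAS41-KO and 723, 805 and 770.4 in WT. Its knockout level was 0.743 of the WT level (log2 change -0.35, SE 0.088, adjusted p = 0.00297), again without overlap.

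The major chaperones HSPA5, CALR and HSP90B1 did not pass the test between GAS41-KO and WT. HSPA5 had 21753, 20259 and 21293 normalized reads in GAS41-KO and 21399, 20562 and 20887 in WT, with mixed order between the groups (log2 change 0.01, 95% interval -0.14 to 0.16, adjusted p = 0.92). CALR had 17079, 16124 and 16789 in GAS41-KO and 16758, 17278 and 16553 in WT (95% interval of the log2 change -0.18 to 0.15, adjusted p = 0.871). HSP90B1 had 31727, 30085 and 30341 in GAS41-KO and 29912, 28614 and 29416 in WT. For HSP90B1 all knockout libraries were above all WT libraries, yet the difference was small for the spread of the fit (log2 change 0.07, 95% interval -0.14 to 0.28, adjusted p = 0.599). That spread is shared by the 4 groups. The SD of HSP90B1 was 2.88% of the mean in GAS41-KO and 2.24% in WT, but 19.0% in wt rescue and 8.14% in mut rescue. XBP1 had 1519.5, 1340.3 and 1437 in GAS41-KO and 1405, 1456 and 1386 in WT (95% interval -0.16 to 0.18, adjusted p = 0.899). HERPUD1 had 1161, 1160.1 and 1247 in GAS41-KO and 1104, 1170.1 and 1183 in WT (95% interval -0.09 to 0.17, adjusted p = 0.607). For XBP1 and HERPUD1 the values of the groups overlapped. SEL1L had 1621, 1491 and 1479 in GAS41-KO and 1819, 1578 and 1686 in WT, a log2 change of -0.13 (adjusted p = 0.153). A fit on these 6 libraries alone called SEL1L lower (adjusted p = 0.00414).

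The rescue groups ask whether GAS41, normal or mutated in its YEATS domain, reverses the knockout. The groups also differed in the level of YEATS4 RNA. It was lower in mut rescue than in wt rescue (log2 change -0.37, adjusted p = 0.000443). Over WT it was 5.26-fold higher in wt rescue and 4.01-fold higher in mut rescue. The part of this level in the results was not tested. The comparisons of this experiment share groups of libraries, so their values are not independent of each other. With normal GAS41, 3 of the 10 genes rose over GAS41-KO, 4 fell and 3 did not pass the test, while 66.0% of all tested genes were called (33.0% higher, 33.0% lower). With mutated GAS41, 0 of the 10 were called by limma, also 0 by voom, and 1 (SDF2L1) had an unadjusted p under 0.05, against 14.9% of all tested genes (5.92% higher, 9.00% lower). Between the rescue groups 4 were higher and 2 lower in mut rescue than in wt rescue, and 61.1% of all tested genes were called (29.8% higher, 31.3% lower). Groups that did not overlap were found in 2 genes higher and 5 lower for wt rescue over GAS41-KO (34.7% and 34.0% of all tested genes), 1 higher and 1 lower for mut rescue over GAS41-KO (16.9% and 16.8%), and 3 higher and 1 lower for mut rescue over wt rescue (27.7% and 30.2%). Scaling by library totals in place of size factors moved the share of higher among all called genes to 37.25%, against 49.97%, for wt rescue over GAS41-KO and to 60.89%, against 48.78%, for mut rescue over wt rescue. EPCAM averaged 9012 ± 782 normalized reads in wt rescue, 1670.2 ± 162 in mut rescue and 915 ± 17.02 in GAS41-KO. The 8 colon epithelium markers, again mostly the keratins, summed to 76404 to 89253 in wt rescue, 65771 to 79807 in mut rescue and 63428 to 65291 in GAS41-KO. Their part in these results was not tested.

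DNAJB9 had 309.8, 197 and 200.2 normalized reads in wt rescue and 594, 546 and 573 in mut rescue, beside a mean of 562 ± 32.3 in GAS41-KO. Wt rescue was low in every library, lowest in replicates 2 and 3, and mut rescue overlapped GAS41-KO. The log2 change was -0.93 for wt rescue over GAS41-KO (SE 0.09, adjusted p = 2.24e-07) and 0.95 for mut rescue over wt rescue (adjusted p = 3.22e-07). With wt rescue replicate 1 as the only wt rescue library these were -0.65 and 0.67, and without it -1.07 and 1.09. For mut rescue over GAS41-KO the change was 0.02 (95% interval -0.17 to 0.21, adjusted p = 0.917).

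EDEM1 had 406, 309.8 and 342 normalized reads in wt rescue and 678, 599.7 and 734 in mut rescue, beside 716 ± 7.96 in GAS41-KO. All wt rescue libraries were far below all others, also below WT, and mut rescue straddled the knockout mean. The log2 change was -0.81 for wt rescue over GAS41-KO (SE 0.076, adjusted p = 1.65e-07) and 0.72 for mut rescue over wt rescue (adjusted p = 9.15e-07). With replicate 1 alone these were -0.65 and 0.57, and without it -0.88 and 0.80. SDF2L1 moved the opposite way. It had 986, 1050.4 and 1051 in wt rescue and 597, 835 and 622 in mut rescue, beside 569 ± 39.6 in GAS41-KO. The 3 wt rescue libraries were close together and above all others, while mut rescue replicate 2 was higher than its 2 partners. The log2 change was 0.72 for wt rescue over GAS41-KO (SE 0.088, adjusted p = 2.73e-06) and -0.51 for mut rescue over wt rescue (adjusted p = 0.000119). With replicate 1 alone these were 0.67 and -0.46, and without it 0.75 and -0.54.

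SEL1L had 1293, 1043 and 1143 normalized reads in wt rescue and 1549, 1495 and 1659 in mut rescue, beside 1530.5 ± 78.8 in GAS41-KO. Wt rescue lay below both groups without overlap (log2 change -0.36 over GAS41-KO, SE 0.075, adjusted p = 0.000518), and mut rescue was higher than wt rescue by 0.40 (adjusted p = 0.000317). With replicate 1 alone the changes were -0.22 and 0.25, and without it -0.44 and 0.47. HSP90B1 had 26495, 18268 and 21128 in wt rescue and 29626, 25219 and 28255 in mut rescue, beside 30717 ± 884 in GAS41-KO. Replicate 1 of wt rescue lay among the mut rescue values, and replicates 2 and 3 lay below them. The log2 change over GAS41-KO was -0.50 (SE 0.1, adjusted p = 0.000374), -0.21 with replicate 1 alone and -0.64 without it. For mut rescue over wt rescue it was 0.35 (adjusted p = 0.00684), 0.22 without wt rescue replicate 2 (adjusted p = 0.0402), and 0.06 with replicate 1 alone.

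CALR had 19056, 23055 and 23010 normalized reads in wt rescue and 16891, 19338 and 16535 in mut rescue, beside 16664 ± 489.9 in GAS41-KO. Wt rescue was above GAS41-KO in every library, but its replicate 1 overlapped mut rescue (log2 change 0.37 over GAS41-KO, adjusted p = 0.000513, and -0.30 for mut rescue over wt rescue, adjusted p = 0.00341). With replicate 1 alone the log2 changes were 0.19 and -0.12, and without it 0.46 and -0.39. With all 3 wt rescue libraries, both calls were lost under quantile normalization (0.07 and -0.09, adjusted p = 0.169 and 0.110). HSPA5 had 21440, 26338 and 25487 in wt rescue and 23478, 22222 and 21359 in mut rescue, beside 21102 ± 765 in GAS41-KO. Only replicates 2 and 3 of wt rescue exceeded the other groups. HSPA5 was called higher for wt rescue over GAS41-KO (log2 change 0.20, SE 0.072, adjusted p = 0.0205), and the change was 0.02 with replicate 1 alone. This call was lost without wt rescue replicate 2 (adjusted p = 0.0986), without wt rescue replicate 3 (0.0866), without GAS41-KO replicate 2 (0.0836), in a fit on these 6 libraries (0.0583) and under library totals (log2 change 0.05, adjusted p = 0.474). Under quantile normalization the change switched sign (-0.03, adjusted p = 0.530). Mut rescue over wt rescue was -0.12 for HSPA5 (adjusted p = 0.154) and was called without wt rescue replicate 1 (-0.21, adjusted p = 0.00181).

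The remaining genes, PDIA4, XBP1 and HERPUD1, were not called over GAS41-KO or between the rescue groups with all 3 wt rescue libraries. For mut rescue over wt rescue the log2 changes were 0.03, 0.06 and 0.10 (adjusted p = 0.758, 0.541 and 0.181). With wt rescue replicate 1 alone they were 0.20, 0.26 and 0.19. Without it PDIA4 and XBP1 changed sign (-0.06 and -0.04) and none of the 3 was called. Library totals called all 3 higher in mut rescue (adjusted p = 0.0428 for PDIA4, 0.0430 for XBP1 and 0.00372 for HERPUD1), and quantile normalization called PDIA4 and HERPUD1 (adjusted p = 0.00819 and 0.0289). PDIA4 had 6154, 7468 and 7381 normalized reads in wt rescue and 6822, 7657 and 6887 in mut rescue, beside 7779 ± 195 in GAS41-KO. Wt rescue lay below the knockout in every library, with replicate 1 lowest (log2 change -0.15, adjusted p = 0.0735, and -0.33 with replicate 1 alone). It was called lower without replicate 2 (-0.20, adjusted p = 0.0324), under library totals (-0.31, adjusted p = 0.000337) and under quantile normalization (-0.39). XBP1 had 1325, 1685 and 1652 in wt rescue and 1582, 1736 and 1536 in mut rescue, beside 1432 ± 89.7 in GAS41-KO. All mut rescue values were above all knockout values, and wt rescue split into a low replicate 1 and a high pair. Its change for wt rescue over GAS41-KO was 0.10 (adjusted p = 0.276), -0.10 with replicate 1 alone, 0.20 without it (adjusted p = 0.00791), and negative but not called under library totals (-0.04) and quantile normalization (-0.0091). HERPUD1 had 1024, 1186 and 1097 in wt rescue and 1191, 1203 and 1168 in mut rescue, beside 1189.5 ± 49.96 in GAS41-KO. It differed least of the 10 between mut rescue and GAS41-KO, by -0.0018 (95% interval -0.13 to 0.13). For wt rescue over GAS41-KO its change was -0.10 (adjusted p = 0.166), and -0.19 with replicate 1 alone. HERPUD1 was called lower there under library totals (-0.24, adjusted p = 0.000989) and under quantile normalization (-0.18, adjusted p = 0.0150).

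**Figure D3:**
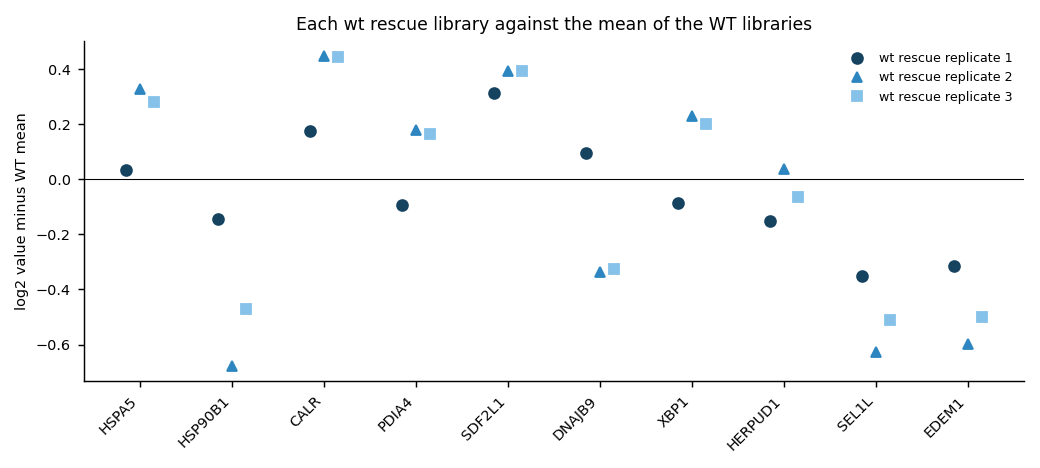
Log2 value of each wt rescue library minus the mean of the 3 WT libraries (vertical axis, deposited scale) for the 10 genes. Replicates 2 and 3 lie on the same side of replicate 1 for all 10 genes, above it for 6 and below it for 4, and SEL1L and EDEM1 are below 0 and CALR and SDF2L1 above 0 in each of the 3 libraries.

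Against WT, wt rescue had 3 of the 10 genes higher (SDF2L1, CALR and HSPA5) and 3 lower (SEL1L, EDEM1 and HSP90B1), beside 50.1% of all tested genes called (27.4% higher, 22.7% lower). The groups did not overlap in 3 genes higher and 3 lower, against 32.4% and 24.8% of all tested genes. Of the called genes 54.74% were higher, and 30.50% under library totals. SEL1L differed by -0.50 (adjusted p = 0.000136) and EDEM1 by -0.47 (adjusted p = 0.000221), and by -0.35 and -0.31 with wt rescue replicate 1 alone. SDF2L1 differed by 0.37 (adjusted p = 0.00302), and by 0.31 with replicate 1 alone. CALR differed by 0.36 and HSP90B1 by -0.43, and by 0.18 and -0.14 with replicate 1 alone. With all 3 wt rescue libraries, the CALR call was lost under quantile normalization (0.09, adjusted p = 0.138). HSPA5 differed by 0.21 (adjusted p = 0.0221), and by 0.03 with replicate 1 alone. The HSPA5 call was lost without wt rescue replicate 2 or 3 (0.16 and 0.18) and without WT replicate 2 or 3 (0.20 and 0.21). It was also lost in a fit on these 6 libraries (0.21, adjusted p = 0.0562) and under library totals (0.07, adjusted p = 0.357). DNAJB9 was not called (-0.19, adjusted p = 0.0927), was called lower without replicate 1 (-0.33, adjusted p = 0.000143) and under library totals (-0.29, adjusted p = 0.0296), and was 0.09 with replicate 1 alone. Without replicate 1, XBP1 (0.22, adjusted p = 0.00655) and PDIA4 (0.17, adjusted p = 0.0122) were called higher. Library totals called HERPUD1 lower (-0.19, adjusted p = 0.00825).

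Mut rescue over WT had 2 of the 10 genes higher and 0 lower, beside 46.3% of all tested genes called (23.5% higher, 22.9% lower). The groups did not overlap in 4 genes higher and 0 lower, against 28.1% and 27.9% of all tested genes. DNAJB9 was 2.03-fold higher (log2 change 0.76, adjusted p = 4.15e-06), with the lowest mut rescue library near double the highest WT library. EDEM1 was higher by 0.25 (adjusted p = 0.0119), a call that was lost without mut rescue replicate 3 (0.20, adjusted p = 0.0581) or without WT replicate 2 (0.22, adjusted p = 0.0537). The other 8 genes had log2 changes between -0.15 for SDF2L1 and 0.17 for XBP1. XBP1 was higher in every mut rescue library than in every WT library and did not pass the test (adjusted p = 0.0876), and a fit on these 6 libraries called it (adjusted p = 0.0337). SDF2L1 was called lower without mut rescue replicate 2 (-0.27, adjusted p = 0.00305).

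The 10 genes belong to a larger secretory pathway, for which 6 lists of 160 other genes were counted. With doxorubicin, 5 of 36 tested ER chaperones and folding enzymes rose and 21 fell (median log2 change -0.266, against -0.009 over all tested genes), beside 32.3% higher and 33.4% lower among all tested genes. ERP29, an ER resident folding factor, averaged 1473 ± 115 normalized reads with doxorubicin and 2701 ± 31.6 with DMSO (log2 change -0.80, adjusted p = 4.73e-07). ERO1A, the oxidase that regenerates disulfide isomerases, averaged 1117 ± 26.6 with doxorubicin and 1802 ± 153 with DMSO (log2 change -0.60). Of 32 genes for translocation into the ER and N-glycosylation, 3 rose and 21 fell (median -0.364). OSTC, a subunit of oligosaccharyltransferase, averaged 1017 ± 80.2 with doxorubicin and 2455 ± 406 with DMSO (log2 change -1.12, adjusted p = 4.37e-07), and SRP72 of the signal recognition particle changed by -0.84. Of 29 genes for exit from the ER and retrieval to it, 3 rose and 14 fell (median -0.202), among them SEC23A of the COPII coat (-1.03) and KDELR1, a receptor that returns chaperones to the ER (-0.78).

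Both directions were represented in the degradation and signalling lists with doxorubicin, beside 32.3% higher and 33.4% lower among all tested genes (median log2 change -0.009). Of 25 genes of ER-associated degradation, 6 rose and 9 fell (median -0.108), and 8 and 8 under library totals. The ubiquitin-conjugating enzyme UBE2J1 averaged 559 ± 3.45 normalized reads with doxorubicin and 1372 ± 111 with DMSO (log2 change -1.06, adjusted p = 2.45e-08), and the ubiquitin ligase RNF185 averaged 1167 ± 33.9 with doxorubicin and 655 ± 44.7 with DMSO (log2 change 0.69, adjusted p = 1.12e-06). Of 20 sensors and transducers, 5 rose and 11 fell (median -0.22). The apoptosis effectors BAX (1.02) and BAK1 (0.77) rose, and CREB3L4 fell (log2 change -0.67, adjusted p = 5.37e-07). BAX and BAK1 are also known outside the unfolded protein response, BAX as a p53 target, and the part of p53 was not tested. All 13 tested genes of the PERK-ATF4 branch were called, 6 higher and 7 lower (median -0.39). Neither PERK activity nor ATF4 protein was measured, so counts for this branch describe the RNA of the listed genes only. ATF3, a stress-induced transcription factor, averaged 1944 ± 27.7 with doxorubicin and 479.8 ± 25.9 with DMSO (log2 change 1.67, adjusted p = 1.74e-10). ASNS, asparagine synthetase, averaged 1306 ± 61.5 with doxorubicin and 5900.3 ± 483 with DMSO (log2 change -2.02, adjusted p = 1.53e-10), and CHAC1, which degrades glutathione, averaged 112 ± 6.20 with doxorubicin and 716 ± 95.7 with DMSO (log2 change -1.69).

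**Figure D4:**
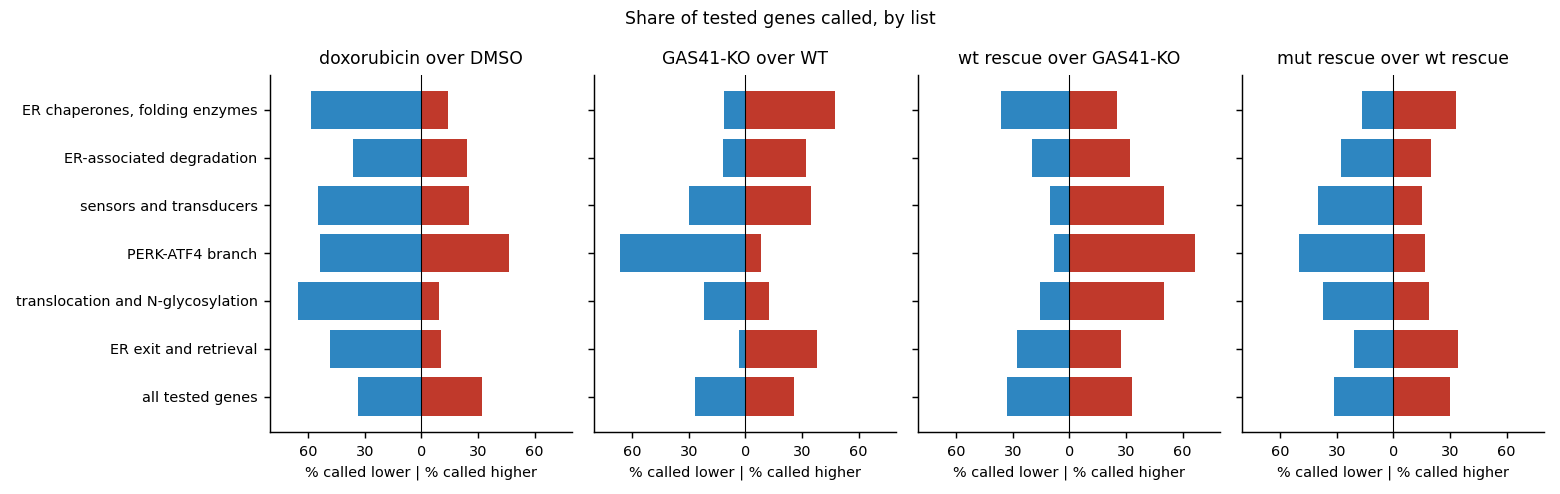
Share of tested genes called higher (right, red) and lower (left, blue), in percent, for the 6 lists and for all tested genes, in 4 comparisons. The bars for all tested genes are nearly symmetric in each panel, whereas the PERK-ATF4 bar points left in GAS41-KO over WT (8 of 12 lower) and right in wt rescue over GAS41-KO (8 of 12 higher).

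In GAS41-KO over WT, 17 of the 36 chaperones and folding enzymes rose and 4 fell (median log2 change 0.188, against -0.008 over all tested genes), beside 26.0% higher and 26.6% lower among all tested genes. CRELD1, a membrane protein with EGF-like repeats, averaged 391 ± 27.3 normalized reads in GAS41-KO and 164 ± 11.9 in WT (log2 change 0.84, adjusted p = 9.79e-09). QSOX1, which introduces disulfide bonds, averaged 2112 ± 90.4 in GAS41-KO and 1245 ± 28.03 in WT (log2 change 0.70). For ER exit and retrieval 11 of 29 rose and 1 fell (median 0.114), led by the COPII subunit SEC24D (log2 change 0.56, adjusted p = 2.52e-06). For ER-associated degradation 8 of 25 rose and 3 fell, including OS9, a lectin that selects substrates (0.48), and for sensors and transducers 7 of 20 rose and 6 fell. Translocation and N-glycosylation had 4 of 32 higher and 7 lower. Of 12 tested genes listed for the PERK-ATF4 branch, 1 rose, 8 fell and 3 did not pass the test (median -0.380). TRIB3, a pseudokinase induced by ATF4, averaged 515 ± 16.4 in GAS41-KO and 1235 ± 4.65 in WT (log2 change -1.07, adjusted p = 5.46e-09), CHAC1 averaged 153 ± 19.3 in GAS41-KO and 352 ± 14.01 in WT (-0.79), and DDIT3, which encodes the transcription factor CHOP, averaged 210.2 ± 9.91 in GAS41-KO and 405 ± 6.58 in WT (-0.66). A fit on the 6 libraries of this comparison raised the calls to 12 higher and 7 lower for degradation, 17 and 6 for exit, and 6 and 13 for translocation.

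Wt rescue over GAS41-KO had 8 of 12 genes of the PERK-ATF4 branch higher and 1 lower (median 0.302), beside 33.0% higher and 33.0% lower among all tested genes. TRIB3 averaged 1046 ± 74.99 normalized reads in wt rescue and 515 ± 16.4 in GAS41-KO (log2 change 0.85, adjusted p = 5.48e-08), and ATF4 averaged 10051 ± 1074 in wt rescue and 6572 ± 232 in GAS41-KO (0.60). Translocation and N-glycosylation had 16 of 32 higher and 5 lower, and chaperones and folding enzymes 9 of 36 higher and 13 lower, with CRELD1 at -0.82 and ERO1B, an ER oxidase, at -0.84. Sensors and transducers had 10 of 20 higher and 2 lower, and 7 each under library totals. Exit and retrieval had 8 of 29 higher and 8 lower, and 4 and 13 under library totals. Degradation had 8 of 25 higher and 5 lower, and 6 each under library totals. Mut rescue over GAS41-KO had fewer calls in every list, and fewer among all tested genes (5.92% higher, 9.00% lower). The most were 7 of 32 higher in translocation and N-glycosylation and 4 of 12 higher (1 lower) in the PERK-ATF4 branch, where DDIT4, an inhibitor of mTORC1 signalling, averaged 2832 ± 233 in mut rescue and 1969.5 ± 51.8 in GAS41-KO (0.49, adjusted p = 0.00031). Leaving out any GAS41-KO library or mut rescue replicate 1 lowered the translocation count to 2, and leaving out mut rescue replicate 3 lowered it to 4. The other lists had 2 higher and 3 lower of 36 (chaperones), 1 of 25 higher (degradation), 1 of 20 higher (sensors) and 2 of 29 higher (exit). Leaving out any GAS41-KO library lowered the chaperone calls to 0 higher and 2 lower. The exit count was 0 without GAS41-KO replicate 2 or mut rescue replicate 1, 1 without GAS41-KO replicate 1 or 3, and 4 without mut rescue replicate 2. The degradation count was 0 without GAS41-KO replicate 3 or mut rescue replicate 1. Without GAS41-KO replicate 2 or 3 or mut rescue replicate 3, the PERK-ATF4 branch had 3 calls, all higher. TRIB3 averaged 503 ± 69.2 in mut rescue and 1046 ± 74.99 in wt rescue (log2 change -0.88, adjusted p = 6.83e-08).

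In mut rescue over wt rescue the chaperones had 12 of 36 higher and 6 lower, exit and retrieval 10 of 29 higher and 6 lower, and ER-associated degradation 5 of 25 higher and 7 lower, beside 29.8% higher and 31.3% lower among all tested genes. Under library totals these were 18 and 2, 18 and 3, and 9 and 5, so the degradation list changed its balance. Translocation and N-glycosylation had 6 of 32 higher and 12 lower, and 8 each under library totals. Sensors and transducers had 3 of 20 higher and 8 lower, and the PERK-ATF4 branch 2 of 12 higher and 6 lower. With wt rescue replicate 1 alone, and so a single library in that group, fewer exit and translocation genes were called. Against WT, wt rescue had 15 of 36 chaperones higher and 9 lower (9 and 10 under library totals), 17 of 32 translocation genes higher and 5 lower (9 and 8), and 14 of 29 exit genes higher and 3 lower (7 and 8). It had 12 of 25 degradation genes higher and 3 lower, 11 of 20 sensors higher and 3 lower, and 3 of 12 PERK-ATF4 genes higher and 4 lower. Over all tested genes 27.4% were higher and 22.7% lower. With wt rescue replicate 1 alone, fewer chaperone, translocation, exit, degradation and sensor genes were called, and fewer of all tested genes. Without wt rescue replicate 3, 10 exit genes were higher and 1 lower, and without WT replicate 2, 2 genes of the PERK-ATF4 branch were higher and 2 lower. Mut rescue over WT, with 23.5% of all tested genes higher and 22.9% lower, had 17 of 36 chaperones higher and 3 lower, 11 of 25 degradation genes and 13 of 29 exit genes higher with 0 lower, 7 of 32 translocation genes higher and 1 lower, 7 of 20 sensors higher and 5 lower, and 3 of 12 PERK-ATF4 genes higher and 6 lower.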

How the data were processed

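RNA was analysed from 18 libraries in 6 groups. The other 26 samples were not analysed here. The deposited values are log2 values made by the authors, 1 table per experiment, and each experiment was tested within its own table. Although named as counts, the values lie on a variance-stabilized log2 scale, as their form shows: inverting it gave whole reads (within 0.01) for 100% of values, with size factors equal to median-ratio ones. Changes of low genes are understated on this scale: 1 log2 unit above the lowest value stands for 39.07 normalized reads (GAS41) or 52.6 (doxorubicin). The submitters' processing notes name TopHat2 2.1.0, HTSeq, DESeq2, Trimmomatic 0.36, Bowtie 1.0.1 and CASAVA 1.4, and the builds hg19 and mm9, with no role for each. Whether counting used strand is not given in the sources used here.

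A gene was tested where 3 or more libraries had 10 or more recovered reads, which kept 14505 genes of the GAS41 table and 14195 of the other. limma 3.58.1 (R 4.3.3, eBayes with trend) was fitted to the deposited log2 values, 1 fit for the 12 GAS41 libraries and 1 for the 6 doxorubicin libraries, with Benjamini-Hochberg adjustment over all tested genes and a threshold of 0.05. A count test had been planned if the files held counts; since they hold log2 values, limma was used. The code of the fit was also run on simulated reads, drawn independently for each library. The outcome of that run is not given here and carries no weight for the results. Tables and figures were made with Python 3.11.15, pandas 2.3.3, numpy 2.4.6 and matplotlib 3.10.9. The alternatives tried were 2 pseudocounts on log2 normalized reads, library totals, quantile normalization, no filter on low values, a replicate block, a fit on the 2 groups compared, each library left out, and wt rescue replicate 1 alone. A voom fit on recovered reads was added after the data were seen. The members, lists and comparisons were chosen with earlier results of these data known. Genes outside the 10 were named from those with the smallest p in each list and comparison (up to 3 called), and pattern neighbours of HSPA5 by Pearson's r. Not every pair of same-numbered samples had correlated deviations above 0.1, so the numbers were not treated as pairs. RefSeq also lists the pseudogenes HSPA5P1 and XBP1P1, and small RNA genes that overlap HSP90B1 and CALR, so a share of those reads could belong elsewhere.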

Additional observations from a re-analysis of the deposited data

How the results depend on the processing

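Across the planned and added alternatives, single genes gave 914 values with the direction and the side of the threshold kept, 25 that were no longer called, 28 that became called and 33 that changed sign. The log2 changes whose sign changed follow. Under quantile normalization CALR was 0.0761 with doxorubicin, 0.0123 in GAS41-KO over WT, -0.0141 in mut rescue over GAS41-KO and -0.0018 in mut rescue over WT. HSPA5 was 0.0751 in mut rescue over wt rescue, -0.0342 in wt rescue over GAS41-KO and -0.0161 in wt rescue over WT, PDIA4 was -0.1351 in wt rescue over WT, and XBP1 was -0.0091 in wt rescue over GAS41-KO. Under library totals DNAJB9 was -0.0104 and SEL1L -0.0035 in mut rescue over GAS41-KO, PDIA4 -0.062 and XBP1 -0.0213 in wt rescue over WT, and XBP1 -0.0428 in wt rescue over GAS41-KO. With wt rescue replicate 1 alone DNAJB9 was 0.0949, PDIA4 -0.092 and XBP1 -0.0864 in wt rescue over WT, HSPA5 was 0.0587 in mut rescue over wt rescue and XBP1 -0.1002 in wt rescue over GAS41-KO. The cause was not tested.

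Leaving out 1 library at a time gave ranges that cross 0 for CALR (-0.0349 to 0.0062), HSPA5 (-0.0121 to 0.0388) and XBP1 (-0.0256 to 0.0564) in GAS41-KO over WT. They crossed 0 for DNAJB9 (-0.0032 to 0.058), HERPUD1 (-0.0175 to 0.029) and SEL1L (-0.0067 to 0.0698) in mut rescue over GAS41-KO, for PDIA4 (-0.0607 to 0.0758) and XBP1 (-0.0419 to 0.1157) in mut rescue over wt rescue, and for CALR (-0.0126 to 0.0994) in mut rescue over WT. In mut rescue over GAS41-KO, 1283 to 2374 genes were called with 1 library left out, against 2164 with all, and the lower counts came without any one GAS41-KO replicate (1418, 1375 and 1283) or without mut rescue replicate 1 (1419). In mut rescue over WT, 1 to 3 members were called, against 2 with all (1 without mut rescue replicate 3 or WT replicate 2, 3 without mut rescue replicate 2). With wt rescue replicate 1 alone, assumed to vary like the other groups, 2328 genes and 2 members were called in wt rescue over WT, against 7267 and 6 with all 3 libraries. Quantile normalization called 1 member (PDIA4) in mut rescue over GAS41-KO.

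The replicate block changed no call of the 10 genes, and gave the degradation list 2 calls in mut rescue over GAS41-KO, against 1 without the block. Same-numbered samples had correlations of deviations from -0.39 to 0.478 in the GAS41 experiment (median 0.145, 18 pairs) and from -0.393 to 0.15 in the doxorubicin experiment (3 pairs), so the numbers were not taken as pairs. In the GAS41 experiment all 6 pairs of replicate 1 (0.136 to 0.231) and 5 of 6 of replicate 2 (0.136 to 0.478) were above 0.1, and 0 of 6 of replicate 3 (-0.39 to 0.093). With 3 libraries per group, changes whose intervals include 0 were not detectable at this precision.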

Other observations

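ERSE or ERSE-II was found in the promoters of 31 genes outside the 10, and 20 of them were tested. With doxorubicin 8 rose, 8 fell and 4 did not pass the test (median log2 change -0.023, against -0.009 over all tested genes), beside 32.3% higher and 33.4% lower among all tested genes. The genes named here were chosen after their values were seen. CANX, the lectin chaperone calnexin, changed by -0.31 (adjusted p = 0.00207) and SERP1, which binds the translocon, by -0.53 (adjusted p = 1.14e-05). ERO1B, an ER oxidase, rose by 0.36 (adjusted p = 0.000219), and HYOU1, an ER chaperone of the HSP110 family, was at -0.01 (adjusted p = 0.859). In GAS41-KO over WT 7 rose, 2 fell and 11 did not pass the test (median log2 change 0.036), beside 26.0% higher and 26.6% lower among all tested genes. ERO1B was at 0.41, FICD, which modifies BiP, at 0.39 and HYOU1 at 0.24. The largest rises were those of TRIM5 (0.66) and NUCB1 (0.61), and the 2 that fell were EIF2A (-0.60) and ZNF143 (-0.25). CANX (adjusted p = 0.571) and SERP1 (adjusted p = 0.651) were not called.

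Across the 12 GAS41 libraries, the genes whose pattern was most like that of HSPA5 were SLC25A3 (Pearson r = 0.964), KIF3B (0.959), KDELR2 (0.955), SEPHS2 (0.953) and RPL4 (0.950). HSPA5 was highest in wt rescue replicates 2 and 3 (26338 and 25487 normalized reads), and their weight in r was not tested. With doxorubicin KDELR2 (-0.36) and RPL4 (-0.79) were lower, KIF3B and SEPHS2 (0.22 each) were higher, and SLC25A3 was not called (-0.12). The correlations are descriptions over libraries that share 4 groups, and carry no test.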
